A study of Mus musculus with 2 samples.

Results

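Retinoic acid, the active form of vitamin A, is made inside cells by retinal dehydrogenases, carried in the cytosol by cellular retinoic acid binding proteins, broken down by hydroxylases of the CYP26 family, and read in the nucleus by retinoic acid receptors that bind DNA as partners of retinoid X receptors. In developing cartilage, low retinoic acid signaling is known to accompany chondrocyte differentiation, and the receptors can repress their target genes when no ligand is bound. In skin, retinoic acid is known for its effects on epidermis, hair follicles and dermal fibroblasts. The 10 genes described here are the receptors *Rara*, *Rarb*, *Rarg* and *Rxra*, the retinal dehydrogenases *Aldh1a1*, *Aldh1a2* and *Aldh1a3*, the hydroxylase *Cyp26b1*, and the binding proteins *Crabp1* and *Crabp2*. They were chosen by name, and all 10 were found among the 24421 genes of the deposited count table.

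The study compared primary chondrocytes from the rib cartilage of newborn mice, released with collagenase and used within a few passages, with primary dermal fibroblasts from the dorsal skin of newborn mice. No transgene, deletion or treatment is given for either culture, and the strain, sex and number of animals behind each library were not stated in the labels. RNA-Seq was performed on 1 library of each cell type, so that no difference below has a replicate check and no p-value was computed. The chondrocyte library held 18788599 counts and the dermal fibroblast library 17563724.

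Levels are given as CPM, the share of the library's counts that fell on a gene times 1e6, after scaling by trimmed mean of M values (TMM), a factor that makes the bulk of genes equal between libraries. A fold is the ratio of these scaled counts, and its 95% interval covers counting error alone, since each cell type has 1 library. The interval may be too narrow even for that, because PCR copies were not marked and reads need not be separate molecules. Of the 10 genes, 9 had at least 10 counts in each library and 5 had at least 100 counts in both, and no member was absent from either library. The cell type markers followed the labels. *Col2a1*, the main cartilage collagen, had 1447098 and 0 counts in chondrocytes and dermal fibroblasts, *Acan* had 148105 and 35, and *Hapln1* had 25199 and 2. The 6 chondrocyte markers were all over 2-fold higher in chondrocytes, and 5 of the 6 dermal fibroblast markers were over 2-fold higher in dermal fibroblasts, where *Col1a1*, the main collagen of dermis, had 322379 counts against 39143, *Col3a1* had 273385 against 32090 and *Pdgfra* had 10527 against 2096. The exception was *Lum*, chosen after its values were seen, with 3191 counts in chondrocytes against 2881. In bulk RNA, fewer cells of a type and less RNA per cell cannot be told apart.

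Before the values, the start regions of 2 members are shown, because one holds the classical binding element of the retinoic acid receptors and the other belongs to the gene with the largest difference. Promoter windows from RefSeq, on GRCm38.p6, cover 250 bases before and 50 bases after those transcript starts that the table lists, which need not be the outer end of a gene. The listed start of *Rarb* lies inside the span of the gene, and no window covered the outer start of *Rarb*, *Rara* or *Rxra*. The promoter windows matched 8 of the 10 members in 14 windows, and *Aldh1a3* and *Crabp2* had none. The windows were searched on both strands for the core hexamer of the receptors, in the form AGGTCA and its variants with the letters AGTTCA or with the letters GGGTCA or with the letters GGTTCA, and for its direct repeats with 1, 2 or 5 bases between them, named DR1, DR2 and DR5. The *Rarb* stretch below runs over the 150 bases before this internal start, on the minus strand of chr14:16575477-16575626, and capitals mark the 3 hexamers. The *Crabp1* stretch runs over the 150 bases before its start, on the plus strand of chr9:54764598-54764747, and capitals mark the letters GGGCGG or their reverse complement, a GC box, found 4 times.
Rarb: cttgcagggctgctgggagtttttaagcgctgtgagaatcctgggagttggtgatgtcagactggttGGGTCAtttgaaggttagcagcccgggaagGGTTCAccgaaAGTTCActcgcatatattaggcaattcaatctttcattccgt
Crabp1: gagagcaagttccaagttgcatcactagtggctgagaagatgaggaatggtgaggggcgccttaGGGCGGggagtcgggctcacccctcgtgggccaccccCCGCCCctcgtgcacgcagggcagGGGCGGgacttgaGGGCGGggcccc

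The last pair of capitals in *Rarb* forms a DR5 of 17 bases, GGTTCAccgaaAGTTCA, at chr14:16575513-16575529, from 53 to 37 bases before the start. A DR5 stood in 32 of all 32851 windows (0.0974%) and in 1 of the 14 member windows. DR1 and DR2 stood in 0.222% and 0.268% of all windows and in 0 of the 14. The hexamer alone, which occurs in each DR5 too, stood in 43.7% of all windows and in 6 of the 14. GGGCGG stood in 35.7% of all windows and in 7 of the 14. There were 5 matches in the *Crabp1* window, 4 each in windows of *Rxra* and *Rara*, and 3 each in windows of *Cyp26b1* and *Rarg*. The windows of *Rarb*, *Aldh1a2* and *Aldh1a1* held 0. Overlapping windows of *Rara* hold the same 4 matches, so the 14 windows are not all separate. These matches describe letters only, and no binding was measured here.

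**Figure D1:**
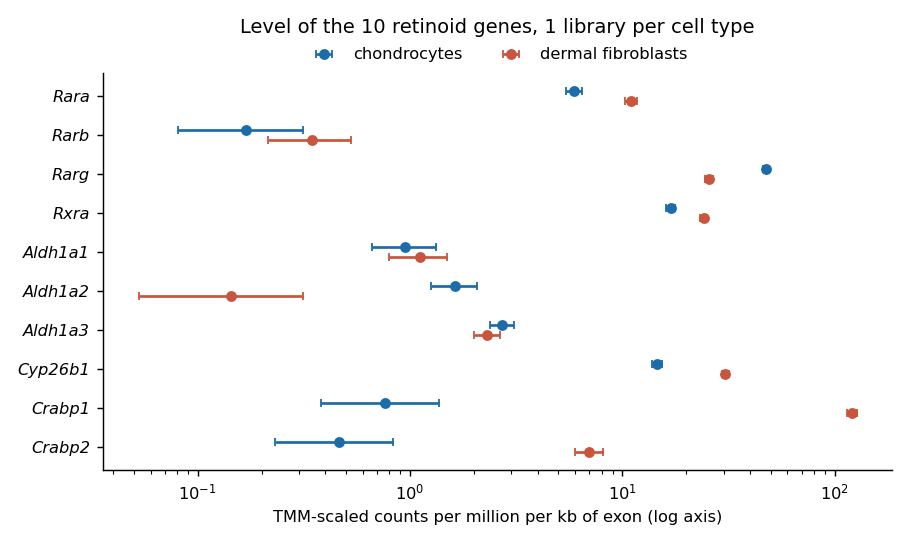
Level of each of the 10 retinoid genes in chondrocytes (blue) and dermal fibroblasts (red), as TMM-scaled CPM per kilobase of exon on a log axis. Points are single libraries and bars are 95% counting intervals, and the widest separation is that of *Crabp1*, at 0.765 against 121.

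Levels of different genes were compared per kilobase of exon. In chondrocytes, *Rarg* led at 47.5 CPM per kilobase, followed by *Rxra* at 16.9, *Cyp26b1* at 14.6, *Rara* at 5.93 and *Aldh1a3* at 2.72, and none of these neighbours had overlapping counting intervals. *Aldh1a2* (1.63), *Aldh1a1* (0.951), *Crabp1* (0.765), *Crabp2* (0.464) and *Rarb* (0.169) followed, and each neighbouring pair among these 5 overlapped. In dermal fibroblasts, *Crabp1* led at 121 CPM per kilobase, followed by *Cyp26b1* at 30.6, *Rarg* at 25.6 and *Rxra* at 24.2, of which the last 2 overlapped. *Rara* (11), *Crabp2* (6.98), *Aldh1a3* (2.31) and *Aldh1a1* (1.11) came next with separate intervals, and *Rarb* (0.346) and *Aldh1a2* (0.144) stood last and overlapped. *Crabp1*, *Crabp2* and *Aldh1a2* thus moved by the most places between chondrocytes and dermal fibroblasts, which by itself shifts the places of other members. With these genes set aside, *Rarg*, *Rxra*, *Rara*, *Aldh1a3*, *Aldh1a1* and *Rarb* kept the same order in both libraries. Only *Cyp26b1* moved among them, from below *Rxra* in chondrocytes to above *Rarg* in dermal fibroblasts. With *Crabp1* set aside, *Rarg* led in chondrocytes and *Cyp26b1* in dermal fibroblasts. For *Rarg* and *Cyp26b1*, all exons together have 4109 and 4602 bases, and the longest transcripts 2953 and 4495. Per longest transcript, *Rarg* would stand above *Cyp26b1* in dermal fibroblasts too, so their order there depends on the length used. The places of *Crabp1* and *Crabp2* in chondrocytes are uncertain, since their intervals overlapped those of their neighbours.

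*Rarg*, the receptor best known from cartilage and skin, lies on chromosome 15 of GRCm38 (102234938 to 102257522). It had 3496 counts in chondrocytes against 1936 in dermal fibroblasts, or 195 and 105 CPM. The fold was 1.85 (interval 1.75 to 1.96), higher in chondrocytes by more than the counting error and within 2-fold. *Rara*, the broadly expressed receptor (chromosome 11, 98927800 to 98974942), had 486 and 929 counts. It was 1.86-fold higher in dermal fibroblasts (counting interval 1.67 to 2.08). With TMM scaling, *Rarg* and *Rara* thus differed by nearly the same factor in opposite directions. These factors were 1.69 and 2.04 with total counts, and 2.02 and 1.71 with *Actb* scaling. *Rarb*, itself a classical target of retinoic acid through the DR5 shown above (chromosome 14, 16430839 to 17082331), had 10 counts in chondrocytes against 21 in dermal fibroblasts. It was 2.04-fold higher in dermal fibroblasts, but its interval ran from 0.922 to 4.86 and included equality. At this depth no difference in *Rarb* was detectable.

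*Rxra*, which encodes the shared partner of the retinoic acid, vitamin D and thyroid hormone receptors (chromosome 2, 27676445 to 27763319), had 1650 counts in chondrocytes against 2430 in dermal fibroblasts. It was 1.43-fold higher in dermal fibroblasts (counting interval 1.35 to 1.53). Summed over *Rara*, *Rarb* and *Rarg*, the counts were 3992 and 2886, 1.42-fold higher in chondrocytes (interval 1.35 to 1.49). With *Rxra* added, the 4 receptor genes had 5642 and 5316 counts, a fold of 1.09 (interval 1.05 to 1.13) with TMM scaling. Total counts would move its log2 fold by -0.14, so the direction of this last sum depends on the scaling. Per kilobase, the sum of the RAR genes was 53.6 CPM beside 16.9 for *Rxra* in chondrocytes, and 37.0 beside 24.2 in dermal fibroblasts.

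The makeup of the RAR genes within a library does not depend on the scaling between libraries. *Rarg* made up 88.6% of the RAR counts per kilobase in chondrocytes (interval 87.6 to 89.5, from 3992 counts) and 69.2% in dermal fibroblasts (67.5 to 70.9, from 2886 counts). *Rara* made up 11.1% (10.2 to 12.0) and 29.8% (28.2 to 31.5), and *Rarb* 0.316% (0.152 to 0.581) and 0.937% (0.581 to 1.43). There were 7.19 counts of *Rarg* for each count of *Rara* in chondrocytes and 2.08 in dermal fibroblasts. The ratio of these ratios was 3.45 (exact conditional interval 3.05 to 3.91). *Rarg* relative to *Rarb* gave 3.79 (interval 1.70 to 9.04), whereas *Rara* relative to *Rarb* gave 1.10 (interval 0.490 to 2.63), which included equality.

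**Figure D2:**
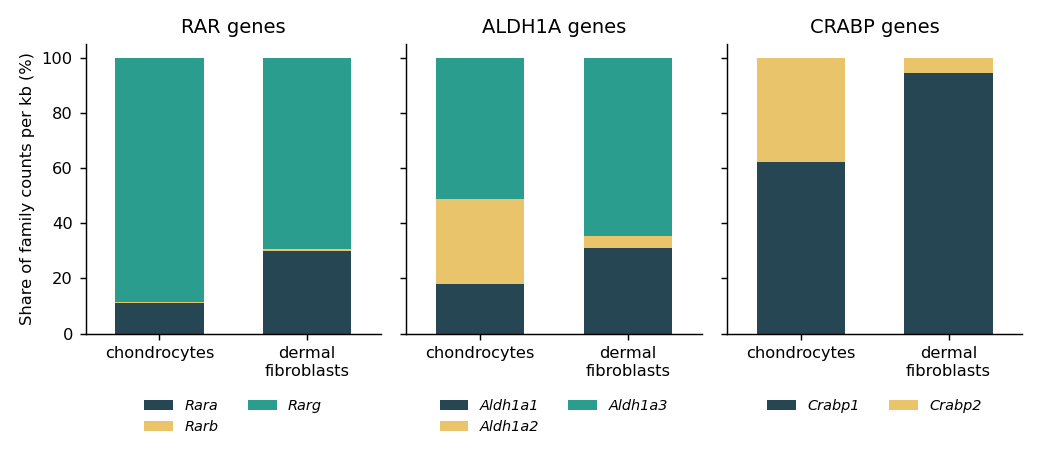
Share of each gene in the counts per kilobase of its family, in percent, for the RAR, ALDH1A and CRABP genes in 1 chondrocyte and 1 dermal fibroblast library. *Rarg* fills 88.6% and 69.2% of the RAR bars, *Aldh1a2* fills 30.7% and 4.04% of the ALDH1A bars, and the chondrocyte CRABP bar rests on 22 counts.

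The retinal dehydrogenases, which make retinoic acid from retinal, had few reads in each library. *Aldh1a2*, the main enzyme of the early embryo (chromosome 9, 71215789 to 71296243), had 66 counts in chondrocytes against 6 in dermal fibroblasts, or 3.68 and 0.326 CPM. It was 11.3-fold higher in chondrocytes, with an interval from 4.92 to 31.9 that lay wholly above 2-fold. *Aldh1a3* (chromosome 7, 66390892 to 66427477) had 225 and 196 counts, and its fold of 1.18 had an interval from 0.969 to 1.44. *Aldh1a1* (chromosome 19, 20492583 to 20643463) had 35 and 42 counts and a fold of 0.856 (interval 0.531 to 1.37). No difference was detectable for these 2 genes.

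The count of *Aldh1a1* carries a further limit, since 50 of the 1979 windows of 75 bases in its longest coding transcript also occur in *Aldh1a7*, a close relative, while no window of the other 9 members occurs in another coding gene. *Aldh1a7* itself had 30 counts in chondrocytes against 86 in dermal fibroblasts. Over the 3 ALDH1A genes the counts summed to 326 and 244, a fold of 1.37 (interval 1.16 to 1.63). *Aldh1a3* held the largest share per kilobase in each library, at 51.3% in chondrocytes (interval 45.4 to 57.4, from 326 counts) and 64.8% in dermal fibroblasts (57.2 to 72.0, from 244 counts). *Aldh1a2* held 30.7% (25.0 to 36.8) and 4.04% (1.51 to 8.51). Relative to *Aldh1a3*, *Aldh1a2* differed 9.55-fold between the libraries (interval 4.04 to 27.6), and relative to *Aldh1a1* 13-fold (interval 4.86 to 41.0).

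*Cyp26b1*, the hydroxylase that clears retinoic acid and protects developing cartilage and limb from it (chromosome 6, 84571414 to 84593908), was well expressed in both cell types. It had 1203 counts in chondrocytes against 2593 in dermal fibroblasts, or 67.1 and 141 CPM. It was 2.10-fold higher in dermal fibroblasts, and its interval (1.96 to 2.25) reached below 2-fold. Per kilobase, *Cyp26b1* stood at 14.6 CPM beside a sum of 5.30 for the 3 ALDH1A genes in chondrocytes, and at 30.6 beside 3.56 in dermal fibroblasts. In each library the degrading enzyme thus had more RNA per length than the synthesizing enzymes together.

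The binding proteins showed the largest differences. *Crabp1*, a cytosolic carrier of retinoic acid (chromosome 9, 54764748 to 54773110), had 11 counts in chondrocytes against 1786 in dermal fibroblasts, or 0.614 and 97.0 CPM. It was 158-fold higher in dermal fibroblasts (counting interval 88.1 to 317). Among the 14291 genes with at least 10 counts in either library, only 0.056% had a lower fold, and its level stood at percentile 6 in chondrocytes and 86.0 in dermal fibroblasts. *Crabp2*, which delivers retinoic acid to the receptors (chromosome 3, 87948693 to 87953372), had 11 and 170 counts and was 15.0-fold higher in dermal fibroblasts (counting interval 8.20 to 30.7). Together they had 22 and 1956 counts. In dermal fibroblasts *Crabp1* made up 94.5% of the CRABP counts per kilobase (interval 93.7 to 95.3, from 1956 counts). In chondrocytes it made up 62.2%, but 22 counts left an interval from 39.3 to 80.7. The ratio of *Crabp1* to *Crabp2* was lower in chondrocytes, 0.0954 times that of dermal fibroblasts (interval 0.0369 to 0.247).

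Markers of other cells also differed between the libraries. All 5 markers of hypertrophic chondrocytes and osteoblasts were over 2-fold higher in chondrocytes, the side on which *Rarg* and *Aldh1a2* were higher, and summed to 734 CPM against 17 in dermal fibroblasts. *Col10a1* had 10378 counts against 3, *Mmp13* had 2276 against 296 and *Ibsp* had 349 against 1. *Bglap*, a defining osteoblast marker chosen after its values were seen, had 6 against 0. With respect to a floor of 3 counts per library, *Bglap* was 2.05-fold higher in chondrocytes, with a lower counting bound of 1.21. With total counts it was 1.87-fold higher, within 2-fold. Of 5 keratinocyte markers, 3 were over 2-fold higher in dermal fibroblasts, and their summed level was 246 CPM there against 8.87 in chondrocytes. The epidermal keratins were the clearest of them, *Krt14* with 17 counts in chondrocytes against 1939 in dermal fibroblasts and *Krt5* with 1 against 1693, followed by *Dsp* with 27 against 722. Of 5 markers of the dermal papilla, the cell cluster at the base of the hair follicle, 3 were over 2-fold higher in dermal fibroblasts and 1 in chondrocytes, with summed levels of 32.4 and 10.9 CPM. *Lef1* had 101 and 253 counts, *Prdm1* 11 and 213, and *Sox2* 9 and 78. The 3 adipocyte markers summed to 298 and 111 CPM, the 3 melanocyte markers to 46.3 and 8.93, the 3 endothelial markers to 32.3 and 11.6, and the 4 macrophage markers to 70.8 and 42.1, each list first in dermal fibroblasts. Skeletal muscle markers summed to 739 CPM in dermal fibroblasts and 1117 in chondrocytes. Of these 5 markers, 2 were over 2-fold higher in chondrocytes, again the side of *Rarg* and *Aldh1a2*, and 1 of them by its whole interval. The other 3 lay within 2-fold. Of these 8 lists, the only other marker at 0 counts in a library was the melanocyte gene *Dct*, with 0 in chondrocytes against 238 in dermal fibroblasts. The part of these cells in the values of *Rarg*, *Aldh1a2*, *Crabp1*, *Crabp2* and the other members was not tested.

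Counted over the 10 genes, 1 was over 2-fold higher in chondrocytes (*Aldh1a2*) and 4 were over 2-fold higher in dermal fibroblasts (*Rarb*, *Cyp26b1*, *Crabp1* and *Crabp2*). Among all 14291 genes with at least 10 counts in either library, a minimum that each member reached, 11.8% were over 2-fold higher in chondrocytes and 16.2% in dermal fibroblasts, and over all 24421 rows 7.73% and 10.1%. Intervals lay wholly beyond 2-fold for *Aldh1a2* in chondrocytes and for *Crabp1* and *Crabp2* in dermal fibroblasts, against 7.21% and 10.8% of those genes. The members' median log2 fold was -0.71, beside -0.0035 over those genes. With so few members, these counts describe the list and do not set it apart from other genes.

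Several members stood close to the threshold, and the scaling decided on which side. Relative to TMM, total counts moved all log2 folds by -0.14 and scaling by *Actb* moved them by 0.12. With total counts, *Rara* was 2.04-fold higher in dermal fibroblasts, making 5 genes on that side. With *Actb*, *Rarg* was 2.02-fold higher in chondrocytes, and *Rarb* and *Cyp26b1* fell to 1.88-fold and 1.93-fold higher in dermal fibroblasts, giving 2 genes on each side. With the upper quartile, *Rarb* no longer passed, leaving 3 genes on the dermal fibroblast side. The calls of *Aldh1a2*, *Crabp1* and *Crabp2* held under each scaling tried.

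**Figure D3:**
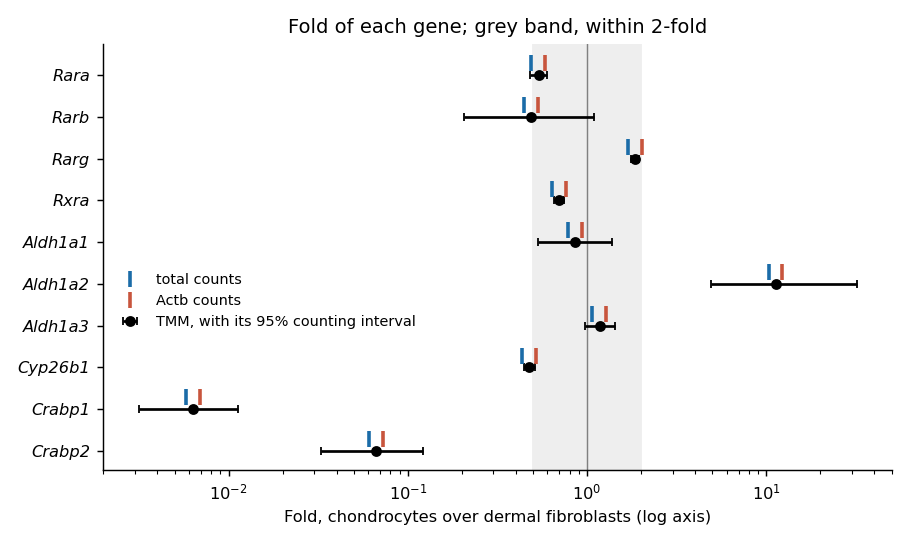
Fold of each gene, chondrocytes over dermal fibroblasts, on a log axis. Black points are TMM folds with 95% counting intervals, blue and red ticks are the folds after scaling by total counts and by *Actb*, and the grey band marks folds within 2. *Crabp1* (0.00633) and *Crabp2* (0.0665) lie far left of the band and *Aldh1a2* (11.3) right of it, while *Rara*, *Rarb*, *Rarg* and *Cyp26b1* lie near its edges.

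The rest of the pathway was described with 53 further genes, listed by role, of which 39 had at least 10 counts in either library. Of the 53, 5 were over 2-fold higher in chondrocytes and 10 in dermal fibroblasts, all 15 with at least 10 counts, against 11.8% and 16.2% of all genes with that minimum. These counts do not set the 39 apart from other genes, and their median log2 fold was -0.28. Among genes that handle retinol, *Rbp4*, the carrier of retinol in blood, had 1954 counts in chondrocytes against 111 in dermal fibroblasts and was 18.1-fold higher in chondrocytes (interval 14.9 to 22.1). *Stra6l*, a retinol receptor gene named here after its values were seen, had 3 and 16 counts. *Rbp2*, named likewise, had 0 and 10 and was 3.25-fold higher in dermal fibroblasts with respect to a floor of 3 counts per library, with a lower counting bound of 2.18. *Dgat1*, which can esterify retinol, was within 2-fold, with 358 and 428 counts. *Stra6*, the membrane receptor for *Rbp4*, and *Lrat*, the main retinol esterifying enzyme, had 3 counts or fewer in each library and were likewise named after the fact.

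The genes that oxidize retinol or reduce retinal lay on both sides of equality. *Dhrs9*, a retinol dehydrogenase, had 571 counts in chondrocytes against 53 in dermal fibroblasts and was 11.1-fold higher in chondrocytes (interval 8.34 to 15.0). *Rdh10*, the main retinol dehydrogenase of the embryo, had 186 and 722 counts and was 3.78-fold higher in dermal fibroblasts (counting interval 3.21 to 4.46). The alcohol dehydrogenases *Adh1* (106 and 902 counts) and *Adh7* (113 and 1164 counts) were 8.28-fold (interval 6.77 to 10.2) and 10-fold (interval 8.26 to 12.3) higher in dermal fibroblasts. *Adh5* had 1659 and 1663 counts and a fold of 1.02 (interval 0.957 to 1.10), and *Dhrs3*, a retinal reductase, had 774 and 1013. Of the 16 genes of this role, 1 was over 2-fold higher in chondrocytes, 3 in dermal fibroblasts, and 8 of the 12 with at least 10 counts lay within 2-fold, where 11.8% and 16.2% of all genes with that minimum were over 2-fold higher in chondrocytes and in dermal fibroblasts. The other hydroxylases, *Cyp26a1* (0 and 2 counts) and *Cyp26c1* (1 and 3 counts), had too few reads for a fold, so that *Cyp26b1* held nearly all CYP26 counts in each library.

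Of the 12 genes listed as responsive to retinoic acid, 9 had at least 10 counts. *Tgm2*, transglutaminase 2, had 2719 counts in chondrocytes against 1111 in dermal fibroblasts and was 2.51-fold higher in chondrocytes (interval 2.34 to 2.70). The homeobox gene *Meis2* (932 and 474 counts) was 2.02-fold higher, with an interval from 1.81 to 2.26, and *Meis1* (709 and 626 counts) lay within 2-fold. *Rarres2*, which encodes chemerin, had 51 and 464 counts and was 8.86-fold higher in dermal fibroblasts (counting interval 6.62 to 12.1). The orphan receptor gene *Nr2f1*, named after its values were seen, had 18 and 62 counts and was 3.35-fold higher in dermal fibroblasts (counting interval 1.96 to 6.02). The list held genes on each side of 2-fold, 3 of the 9 higher in chondrocytes and 2 in dermal fibroblasts, beside the same 11.8% and 16.2% of all genes. *Meis2* fell to 1.84-fold with total counts and 1.99-fold with DESeq2 size factors. By the interval wholly beyond 2-fold, 1 gene remained on each side. With so few genes, these counts do not set the list apart from other genes. Among the receptor partners, *Fabp5*, which carries retinoic acid to PPARδ, had 1784 and 4600 counts and was 2.51-fold higher in dermal fibroblasts (counting interval 2.38 to 2.65). *Ppard* (840 and 1483 counts) and *Rxrb* (861 and 746 counts) lay within 2-fold.

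**Figure D4:**
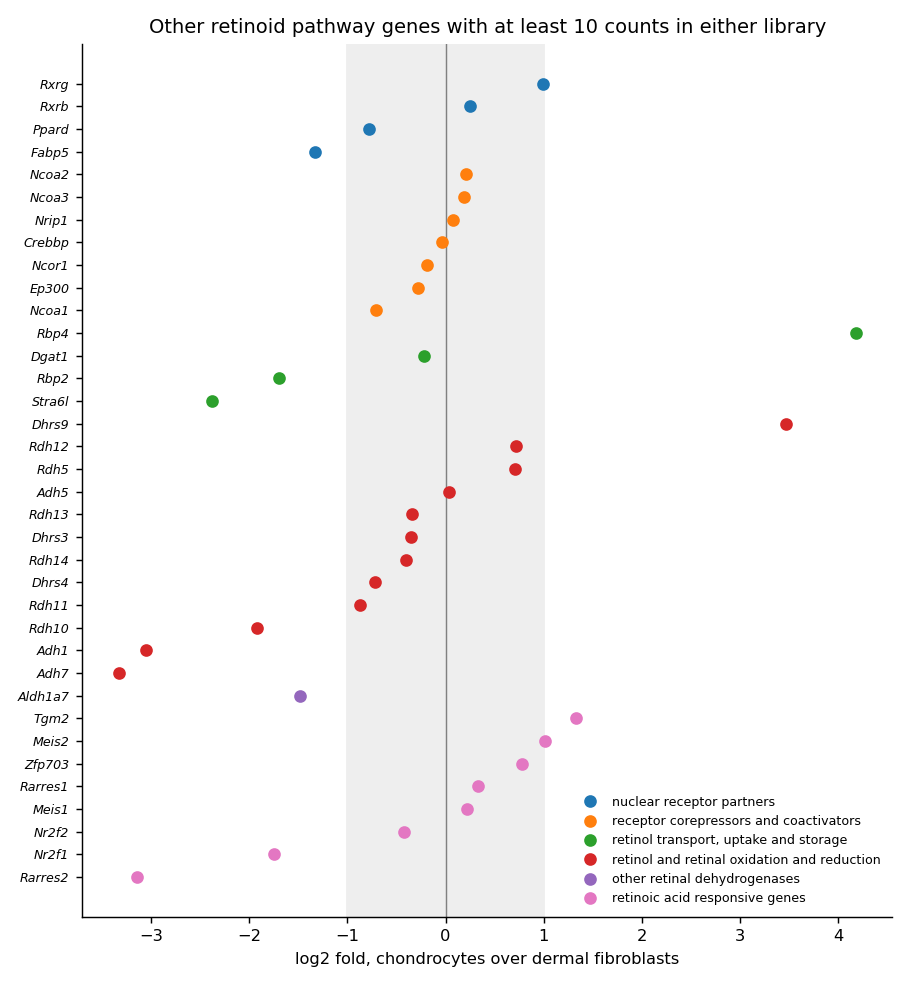
The log2 fold, chondrocytes over dermal fibroblasts, of 36 of the 39 other retinoid pathway genes with at least 10 counts in either library, grouped and coloured by role, with *Rbp2* drawn at the floor of 3 counts in chondrocytes. The grey band marks folds within 2, and *Rbp4* (4.18) and *Dhrs9* (3.47) stand at the right, with *Adh7* (-3.33), *Rarres2* (-3.15) and *Adh1* (-3.05) at the left.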

How the data were processed

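RNA-Seq counts of 1 chondrocyte and 1 dermal fibroblast library were analysed. The authors deposited raw read counts by gene symbol, whole and not normalized, from TruSeq Stranded mRNA libraries read as 75 bp single ends. Per the submitters' processing notes, CASAVA 1.8.2, TopHat2 2.0.13, Bowtie2 2.2.3, SAMtools 0.1.19 and the mm10 genome were used. The counting program, its annotation and its strand setting were not given in the sources used here. Annotated exons of the 10 members overlapped those of no other gene in GENCODE vM1. In 27 rows a date stood in place of the symbol, and these were kept among the rows.

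Libraries were scaled with TMM (edgeR 4.0.16, R 4.3.3). For folds, any count below 3 was raised to 3, and a fold above 2 was the threshold for counting a gene. Fold and share intervals are 95% Clopper-Pearson intervals, and level intervals are exact Poisson intervals. Python 3.11.15, numpy 2.4.6, scipy 1.17.1, pandas 2.3.3 and matplotlib 3.10.9 were used. Exon union lengths came from GENCODE vM1 (NCBIM37), gene positions and promoters from RefSeq on GRCm38.p6, which has the coordinates of mm10. The calculation was tested on simulated counts.

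Alternatives were scaling by total counts, DESeq2 1.42.0 size factors, the upper quartile or *Actb*, a floor of 1 or of 10 counts, adding a pseudocount of 1, a minimum of 10 counts, a fold over 4, and the interval beyond 2-fold. For family shares they were the longest transcript length and raw counts. Named were all members and, of each other list, the 3 most abundant genes and, from 100 counts, up to 3 of the largest folds over 2 in each direction. Of each marker list given by gene, the 3 most abundant were taken. The members, lists and rules were chosen with earlier results of these data known, and the GC box was searched after the sequences had been seen. For 3 genes of the other lists, values are not reported here, though the counts of genes include them.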

Additional observations from a re-analysis of the deposited data

How the results depend on the processing

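Alternatives were applied singly. No paired analysis was possible because only 1 library of each cell type was sequenced. The members over 2-fold higher in chondrocytes went from 1 to 2 with *Actb* scaling, and those over 2-fold higher in dermal fibroblasts went from 4 to 2 with *Actb* scaling, with a fold over 4 and with the interval wholly beyond 2-fold. Over all genes, 1887 were over 2-fold higher in chondrocytes, against 2876 with a pseudocount of 1, 713 with a fold over 4 and 1041 by the interval. In dermal fibroblasts the number was 2468, against 929 with a fold over 4 and 1546 by the interval. The other retinoid genes over 2-fold higher in chondrocytes went from 5 to 8 with a pseudocount of 1, 2 with a fold over 4 and 3 by the interval, and those over 2-fold higher in dermal fibroblasts from 10 to 4 with a fold over 4. The stricter thresholds remove genes by construction. Of 70 member folds under the alternatives, 6 lay outside the counting interval and 0 changed direction, all 6 in *Rarg*, *Rxra* and *Cyp26b1* under total counts or *Actb*. The fold of *Aldh1a2* ranged from 6.78 (floor of 10 counts) to 12.3. Of 32 family shares, 14 left their interval, most of them with raw counts in place of counts per kilobase. *Rbp2* had no fold with a floor of 10 counts. The depth limits *Rarb*, *Aldh1a1*, *Aldh1a2* in dermal fibroblasts and the binding proteins in chondrocytes.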

Other observations

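The 8 coactivators and corepressors through which the retinoic acid receptors act on chromatin were all well counted and all lay within 2-fold after TMM scaling, with a median log2 fold of -0.12. Most genes did so, since 11.8% of genes with at least 10 counts were over 2-fold higher in chondrocytes and 16.2% in dermal fibroblasts. This count does not set the 8 apart from other genes. With total counts or DESeq2 size factors, 1 of the 8 was over 2-fold higher in dermal fibroblasts. The corepressor gene *Ncor1* had 2913 counts in chondrocytes against 3416 in dermal fibroblasts, and its fold was 0.876 (interval 0.833 to 0.921). *Ep300*, the acetyltransferase p300, had 1542 and 1919 counts and a fold of 0.825 (interval 0.771 to 0.883). With 1 library per cell type, none of these differences has a replicate check.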
